A study of Mus musculus with 6 samples.

Results

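The semaphorins, plexins, neuropilins, ephrins and Eph receptors, the guidance genes that steer growing axons and migrating cells, were followed in single nuclei of the mouse colon. The members were all genes whose symbol marks them as a semaphorin, a plexin of classes A to D, a neuropilin, an Eph receptor or an ephrin, 56 of the 31053 genes counted. They comprised 20 semaphorins, 9 plexins, 2 neuropilins, 14 Eph receptors, 8 ephrins and 3 antisense RNAs of the Plxna4 locus (Plxna4os1, Plxna4os2 and Plxna4os3). The nuclei came from the total colon of wild-type C57BL/6J mice, a common laboratory strain, and were sorted on a DNA stain and on INTACT, a nuclear tag, as nuclei of the enteric nervous system. The Stress group (n = 3 libraries) was restrained daily for 7 days, the Dexamethasone group (n = 1) received injections of the synthetic glucocorticoid dexamethasone over 7 days, and the Control group (n = 2) received a control treatment. The driver of the nuclear tag, the age of the mice, the dose and the number of animals per library are not given in the sources used here, so p-values measure the spread between libraries, which may be technical.

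Semaphorins are ligands, some secreted (class 3) and others held in the membrane (classes 4 to 7). They act through plexins, and most secreted ones also need the co-receptors Nrp1 or Nrp2. Ephrins are membrane-bound ligands of Eph receptor tyrosine kinases, with A-type ephrins held by a lipid anchor and B-type ephrins crossing the membrane, so that signals pass where cells touch. In the gut these families are known for guiding enteric neural precursors and vessels, and in the epithelium EphB receptors and B-type ephrins sort cells along the crypt.

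The deposited matrices held 853 to 3042 barcodes per library and 58954323 unique molecular identifiers (UMIs, counts of single transcripts) in all. A minimum of 300 genes detected, a limit of 5% on UMIs of mitochondrial genes and the removal of 31 called doublets left 3430 of 11040 barcodes, with 504, 693 and 637 nuclei in Stress 1, 2 and 3, 378 in Dexamethasone 1 and 765 and 453 in Control 1 and 2. Libraries shared at most 3 barcodes. Of the kept nuclei, 526 were neuron-like and 879 glia-like by their markers, 437 were epithelium-like and 316 smooth muscle-like, 205 resembled fibroblasts and 156 lymphatic endothelium, 77 were macrophage-like, 67 cycling, 38 vascular endothelium-like and 23 enteroendocrine-like, and 706 stayed unnamed. Nuclei of cell types outside the enteric nervous system thus passed the sort as well. In the neuron-like class 17 of 18 neuronal markers had UMIs, with Tubb3 at 0, and in the glia-like class all 14 glial markers did. The guidance genes took no part in the clustering. A level here is given in counts per 1000000 (CPM), the UMIs of a gene in a class of 1 library scaled to a total of 1000000 UMIs of that class and library, and levels of different genes are not compared, since transcript length was not corrected.

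All 56 guidance genes had UMIs in the kept nuclei, from 3 for Plxna4os1 to 9630 for Efna5, and 12 of them had under 50 (Efna2, Efna3, Efna4, Efnb3, Epha1, Epha10, Sema3g, Sema5b, Sema6b, Sema7a, Plxna4os1 and Plxna4os2). At least 10 UMIs were found for 44 of the 56 genes in neuron-like nuclei and for 41 in glia-like nuclei, against 26 in the smaller smooth muscle-like class and 22 in epithelium-like nuclei. The 3 antisense RNAs lie over Plxna4 and had 3, 8 and 55 UMIs. Whether counting used the strand is not stated, so their reads and those of Plxna4 may not be separable.

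Promoter windows of 3 genes that were each highest in another class, taken from RefSeq (GRCm38.p6), are given with every CpG dinucleotide in capitals. Each window is the 250 bases before the start of the gene, read 5′ to 3′ on its strand. Epha5 was high in neuron-like nuclei, Epha7 in smooth muscle-like nuclei and Sema3e in glia-like nuclei.
Epha5, chr5:84417383-84417632, minus strand: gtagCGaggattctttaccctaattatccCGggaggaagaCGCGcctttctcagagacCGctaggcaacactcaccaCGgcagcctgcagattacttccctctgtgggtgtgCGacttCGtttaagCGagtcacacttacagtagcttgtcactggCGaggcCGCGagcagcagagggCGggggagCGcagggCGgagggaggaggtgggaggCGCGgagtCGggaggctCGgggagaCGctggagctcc
Epha7, chr4:28812881-28813130, plus strand: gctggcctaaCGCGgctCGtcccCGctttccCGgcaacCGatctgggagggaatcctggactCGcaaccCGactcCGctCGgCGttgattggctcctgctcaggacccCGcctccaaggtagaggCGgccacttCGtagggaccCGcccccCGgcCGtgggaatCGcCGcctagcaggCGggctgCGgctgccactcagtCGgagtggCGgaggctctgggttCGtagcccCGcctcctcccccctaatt
Sema3e, chr5:14025026-14025275, plus strand: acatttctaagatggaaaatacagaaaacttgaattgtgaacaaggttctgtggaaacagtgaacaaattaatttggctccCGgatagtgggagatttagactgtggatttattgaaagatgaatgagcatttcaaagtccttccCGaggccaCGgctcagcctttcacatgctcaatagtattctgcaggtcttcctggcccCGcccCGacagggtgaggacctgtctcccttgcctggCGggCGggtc
The motif counted was CG, which reads the same on both strands, and 92.1% of the 32817 promoter windows of this length held at least 1. The Epha5 window held 20 and the Epha7 window 25, more than 82.1% and 89.3% of all windows. The Sema3e window held 7, against a median of 6.

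Among the secreted ligands, Sema3a, the classical repellent of growing axons, averaged 1548 ± 99.1 CPM in smooth muscle-like nuclei (SD, n = 6 libraries of all groups) and 926 ± 193 in lymphatic endothelium-like nuclei, and 108 in the next class. At least 1 Sema3a UMI was found in 61.8 to 92.7% of smooth muscle-like nuclei per library, against 0 to 3.85% of epithelium-like nuclei, at similar depths (medians of 2400 and 2364 UMIs per nucleus). In lymphatic endothelium-like nuclei the share was 35.3 to 68.9%, at a lower depth (median of 1582). Sema3e, a ligand of Plxnd1 that needs no neuropilin, averaged 628 ± 173 in glia-like nuclei and 218 ± 67.7 in smooth muscle-like nuclei. Sema3d averaged 658 ± 321 in lymphatic endothelium-like nuclei and 87.1 ± 25.2 in fibroblast-like nuclei, the next class. Sema3f was also highest there (179 ± 116), while Sema3b was highest in glia-like nuclei (66.6 ± 38.8). Sema3c was spread over fibroblast-like (741 ± 217), epithelium-like (694 ± 150) and smooth muscle-like nuclei (533 ± 134), whose ranges over libraries overlapped. All 6 UMIs of Sema3g in the kept nuclei came from vascular endothelium-like nuclei, at 0 to 209 CPM over 4 libraries.

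The membrane-bound semaphorins had other class patterns. Sema6d, a transmembrane ligand of Plxna1, averaged 1047 ± 162 CPM in neuron-like nuclei (range 783 to 1282 over 6 libraries), and the next class, vascular endothelium-like, reached 237 ± 251. Sema6a, a transmembrane ligand of Plxna2 and Plxna4, averaged 2090 ± 563 in lymphatic endothelium-like nuclei and 738 ± 318 in vascular endothelium-like nuclei (n = 4). Sema5a averaged 1702 ± 531 in cycling nuclei and 1310 ± 340 in the unnamed cluster led by Kcnq1, Cftr and Lgr5, with 247 ± 96.3 in fibroblast-like nuclei. Sema4d, the ligand of Plxnb1, averaged 314 ± 120 in macrophage-like nuclei (n = 5) and 195 ± 28.0 in neuron-like nuclei, and these ranges overlapped. Sema4a (98.0 ± 21.5) and Sema4g (147 ± 47.9) were highest in epithelium-like nuclei. Sema4b averaged 167 ± 70.6 in macrophage-like and 111 ± 18.3 in glia-like nuclei, while Sema4c, Sema4f and Sema6c stayed at or under 39.3 CPM on average in every class.

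Plexins and neuropilins are the receptors of these ligands. Plxna4 averaged 1041 ± 515 CPM in vascular endothelium-like nuclei (n = 4), 657 ± 141 in glia-like nuclei and 554 ± 184 in neuron-like nuclei, whose ranges overlapped, and 505 ± 91.6 in lymphatic endothelium-like nuclei. Plxnb3, a plexin known from oligodendrocytes, averaged 41.2 ± 16.9 in glia-like nuclei, against 11.5 ± 22.9 in vascular endothelium-like and 2.00 ± 4.89 in lymphatic endothelium-like nuclei. Plxnb1 (88.0 ± 26.8) and Plxna3 (30.1 ± 13) were highest in neuron-like nuclei. Plxnd1, an endothelial plexin, averaged 206 ± 124 in vascular endothelium-like nuclei, and all 4 of these libraries (91.6 to 378) were above the lymphatic endothelium-like libraries (8.35 to 49.7). Nrp1 was highest in vascular endothelium-like nuclei (524 ± 274) and then in fibroblast-like nuclei (230 ± 80.6). Nrp2 averaged 649 ± 137 in lymphatic endothelium-like nuclei and 518 ± 111 in smooth muscle-like nuclei, and 823 and 964 in the 2 libraries with at least 5 enteroendocrine-like nuclei. Plxnc1, the receptor of Sema7a, averaged 101 ± 114 in macrophage-like nuclei and 24.8 ± 16.4 in neuron-like nuclei. Plxnb2 was highest in epithelium-like nuclei (102 ± 49.8) and Plxna1 low throughout, at 18.3 ± 9.53 in fibroblast-like nuclei. The cluster called macrophage-like also had Lef1, Grap2 and Bank1, genes of lymphocytes, among its leading genes. When nuclei needed 500 genes and no more than 2% mitochondrial UMIs, no guidance gene was highest in vascular endothelium-like or macrophage-like nuclei. A class entered that ranking only if it was named again and had a library with at least 5 nuclei. Whether these shallow classes did was not checked, so the ranking cannot show that their genes were higher elsewhere.

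Several Eph receptors were high in 1 class and low in the rest. Epha5 averaged 1257 ± 175 CPM in neuron-like nuclei, with every library between 996 and 1460, and at most 61.4 ± 64.4 in any other named class. Epha6 was likewise highest in neuron-like nuclei (593 ± 113, next 79.4 ± 60.8 in smooth muscle-like nuclei). Epha7 averaged 966 ± 159 in smooth muscle-like nuclei, 68.7 ± 15 in glia-like and 45.5 ± 24.4 in neuron-like nuclei, and the lowest smooth muscle-like library (712) was above the highest glia-like one (84.7). At least 1 Epha7 UMI was found in 34.8 to 65.9% of smooth muscle-like nuclei per library and in 0 to 1.59% of epithelium-like nuclei. The shares were 8.82 to 31.0% in neuron-like and 6.52 to 17.8% in glia-like nuclei, which were deeper (medians of 4478 and 3222 UMIs, against 2400). Epha3 was highest in glia-like nuclei (50.9 ± 17.4) and Epha2 in epithelium-like nuclei (92.0 ± 67.3). Ephb2, a receptor of the crypt base, averaged 602 ± 172 in cycling nuclei and 533 ± 165 in the unnamed cluster with Lgr5, and 80.5 ± 23.1 in neuron-like nuclei. Epha4 (160 ± 103) and Ephb3 (24.6 ± 34.0) were also highest in cycling nuclei, Ephb4, the receptor of Efnb2 on veins, in vascular endothelium-like nuclei (116 ± 90.8) and Ephb1 in lymphatic endothelium-like nuclei (97.6 ± 68.5). Ephb6, which lacks kinase activity, averaged at most 8.62 ± 19.3 in any class. Efnb2, a ligand of Ephb2, averaged 578 ± 193 in epithelium-like nuclei and 191 ± 131 in vascular endothelium-like nuclei, and Efnb1 (71.6 ± 25.8) and Efna1 (160 ± 77.5) were also highest in epithelium-like nuclei. Efna5, an A-type ephrin that binds Epha5 and Epha7, was shared by 4 classes, with 1251 ± 333 in smooth muscle-like, 990 ± 48.9 in neuron-like, 934 ± 121 in glia-like and 824 ± 219 in fibroblast-like nuclei, ranges that overlapped.

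Within the neuron-like class, guidance genes divided the 5 clusters, which are named here by their leading genes. Epha5 averaged 2200 ± 348 CPM in the Nos1 cluster, the nitrergic type, and 1382 ± 248 in the Grik1 and Sst cluster, against 486 ± 239 in the Penk and Tac1 cluster, 253 ± 120 in the Klhl1 and Vip cluster and 115 ± 86.4 in the Nmu cluster. Sema6d followed the same 2 clusters (1397 ± 197 and 1640 ± 378), with 281 ± 183 in the Nmu cluster. Plxna4 had another order, with 1397 ± 409 in the Nmu cluster, 1208 ± 227 in the Klhl1 and Vip cluster, 735 ± 328 in the Grik1 and Sst cluster and 52.8 ± 51.1 in the Nos1 cluster. The highest Nos1 library for Plxna4 (137) was below the lowest Grik1 and Sst library (181). Sema3e was found mainly in the Penk and Tac1 cluster, at 55.5 to 1358 over 6 libraries, where the mean of the next neuron-like cluster was 50.1 ± 22.3. Efna5 was lowest in the Nmu cluster (204 ± 86.3), while the means of the other four ran from 862 ± 290 in the Nos1 cluster to 1673 ± 468 in the Klhl1 and Vip cluster. Nrp1 averaged 219 ± 136 in the Klhl1 and Vip cluster and at most 72.9 ± 43.5 in the others. Epha8 had 33.3 ± 13.5 in the Nos1 cluster and at most 4.73 ± 9.46 elsewhere. These averages span the groups and describe the clusters without a test.

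**Figure D1:**
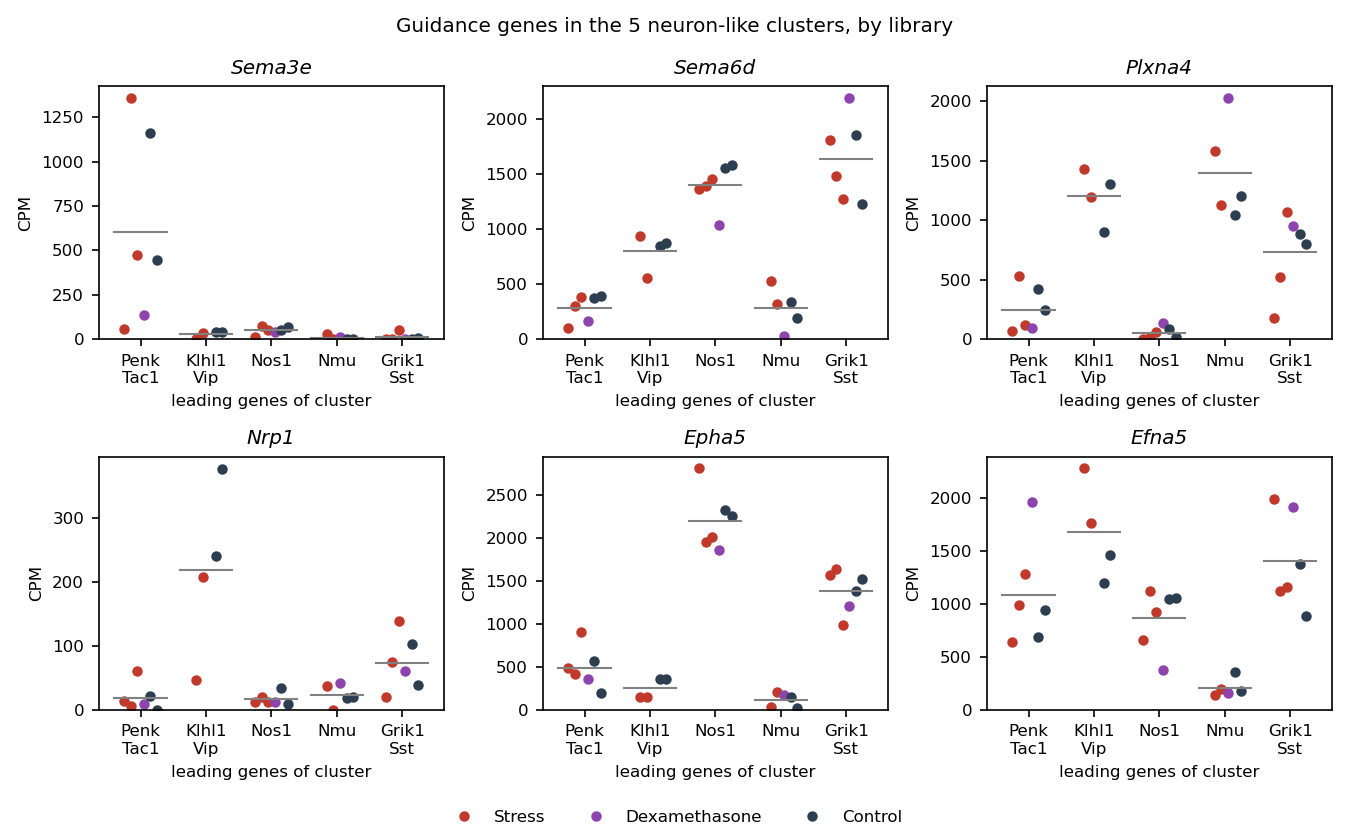
CPM (vertical axis) of 6 guidance genes in the 5 neuron-like clusters (horizontal axis, by leading genes); each point is 1 library with at least 5 nuclei in the cluster, coloured by group, and the grey line is their mean. In the Nos1 cluster every Plxna4 point is at or below 137 and every Epha5 point is the highest of its library.

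Glia-like and smooth muscle-like clusters also differed among themselves. Ephb2 averaged 151 ± 58.4 CPM in the glia-like cluster with Col28a1 and Kcna1, 21.3 ± 10.7 in the one with Col11a1 and Frzb and 5.04 ± 7.05 in the one with Arih1 and Nr4a3. Plxna4 ran the other way, with 312 ± 91.5, 734 ± 150 and 605 ± 186 in the same clusters, and Sema3e was near even (628 ± 137, 542 ± 85.2 and 672 ± 258). Among smooth muscle-like nuclei, Epha7 averaged 1126 ± 219 in the larger cluster (Myh11, Actg2) and 521 ± 113 in the smaller (Hs3st4, Ak5), while Sema3a (1418 ± 189 and 2092 ± 330), Sema3c (363 ± 105 and 1080 ± 600) and Plxna2 (72.2 ± 42.8 and 227 ± 69.8) were higher in the smaller one. The clusters did not hold equal shares in each library. The Arih1 and Nr4a3 cluster had 8, 25 and 77 nuclei in Stress 1, 2 and 3, 77 in Dexamethasone 1 and 6 and 3 in Control 1 and 2. The Nmu cluster had 3, 12 and 10 nuclei in the Stress libraries, 42 of the 70 neuron-like nuclei of Dexamethasone 1, and 8 and 6 in Control.

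The comparison of Stress with Control asked which guidance genes respond to repeated restraint. In glia-like nuclei 19 guidance genes had enough counts to be tested, and none passed an adjusted p of 0.05 in edgeR's quasi-likelihood test, where 2.05% of all 6543 genes tested did. At an unadjusted p under 0.05 there were 3 (13.2% of all genes), and DESeq2 called 0. Their median log2 fold change was 0.08, with 11 of 19 above 0, beside a median of -0.01 over all genes. Without Control 1 the median was 0.34, with 16 of 22 above 0, and without Control 2 it was -0.16, with 9 of 21 above 0. Plxna4 had the smallest p, with 545, 561 and 524 CPM in Stress 1, 2 and 3, 688 in Dexamethasone 1 and 885 and 739 in Control 1 and 2. All 3 Stress libraries were below both Control libraries and close to one another, and Dexamethasone lay between. The log2 fold change in Stress was -0.63 ± 0.18 (SE, edgeR adjusted p = 0.104), so the difference did not pass over all genes. It was -0.57 in the Col11a1 and Frzb cluster alone and 0.33 in the Col28a1 and Kcna1 cluster alone.

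Sema3b, a secreted semaphorin, had 142, 60.7 and 68.8 CPM in the Stress glia-like libraries, 41.6 in Dexamethasone and 36.3 and 50.2 in Control. Each Stress library was above both Control libraries, with Stress 1 far above the rest, and without Stress 1 the log2 fold change was 0.55 where all libraries gave 0.94 ± 0.39 (edgeR adjusted p = 0.297). Sema5a had 5, 11 and 11 UMIs in the Stress libraries and 10 and 21 in Control, and its level in Control 1 lay inside the Stress range. Its log2 fold change was -1.08 ± 0.49 (edgeR adjusted p = 0.369), and -0.39 without Control 2. The libraries of Stress and Control did not overlap for 4 of the 19 genes tested (Sema3b and Plxnb3 higher in Stress, Plxna4 and Ephb2 lower), beside 29.3% of all genes tested. Epha5, at 35.5, 48.1 and 45.9 CPM in Stress and 51.2 and 9.13 in Control, showed how far 1 Control library could set a result. Without Control 1 and Stress 1, Epha5 (log2 fold change 2.30, edgeR adjusted p = 0.0109) and Sema3c (1.14, adjusted p = 0.00917) passed as higher in Stress glia-like nuclei, beside 5.69% of all genes, whereas with all libraries they stood at 0.47 ± 0.49 and 0.08 ± 0.33.

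In neuron-like nuclei 26 guidance genes were tested for Stress against Control and none passed, where 0.00% of all 8066 genes did. At an unadjusted p under 0.05 there were 2 in edgeR (9.96% of all genes), and DESeq2 called 0. Nrp1, the co-receptor of secreted semaphorins, had 36.3, 35.9 and 63.2 CPM in Stress, 66.0 in Dexamethasone and 73.4 and 75.9 in Control, so that all Stress libraries were below both Control libraries. Its log2 fold change was -0.72 ± 0.28 (edgeR adjusted p = 0.462), and it was 0.15 when the mitochondrial filter was dropped. Sema4d had 178, 164 and 184 in Stress, 193 in Dexamethasone and 205 and 244 in Control, again without overlap, at -0.41 ± 0.18 (edgeR adjusted p = 0.486). Over the 26 genes the libraries did not overlap for 5, namely Plxnc1 higher and Nrp1, Sema4b, Sema4d and Epha6 lower in Stress, beside 28.4% of all genes. Groups overlapped for Epha5, which marks the class, at 1460, 1127 and 1276 in Stress and 1419 and 1264 in Control (log2 fold change -0.11 ± 0.19). They also overlapped for Efna5, which other classes share, at 952, 1008 and 990 in Stress and 1043 and 916 in Control (-0.05 ± 0.17). The 17 epithelial markers, none of them at 0, summed to 190, 479 and 248 CPM in Stress and 815 and 655 CPM in Control neuron-like nuclei, and their part in these values was not tested. A direct test of whether Stress acted differently in neuron-like and glia-like nuclei called 0 of 28 guidance genes, beside 0.195% of all 8195 genes, with 0 at an unadjusted p under 0.05 (8.11% of all genes) and 0 called by DESeq2. Without the mitochondrial filter 1 passed there, Sema5a, whose Stress change was higher in neuron-like than in glia-like nuclei by 1.72 on the log2 scale (edgeR adjusted p = 0.0404), beside 0.850% of all genes.

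**Figure D2:**
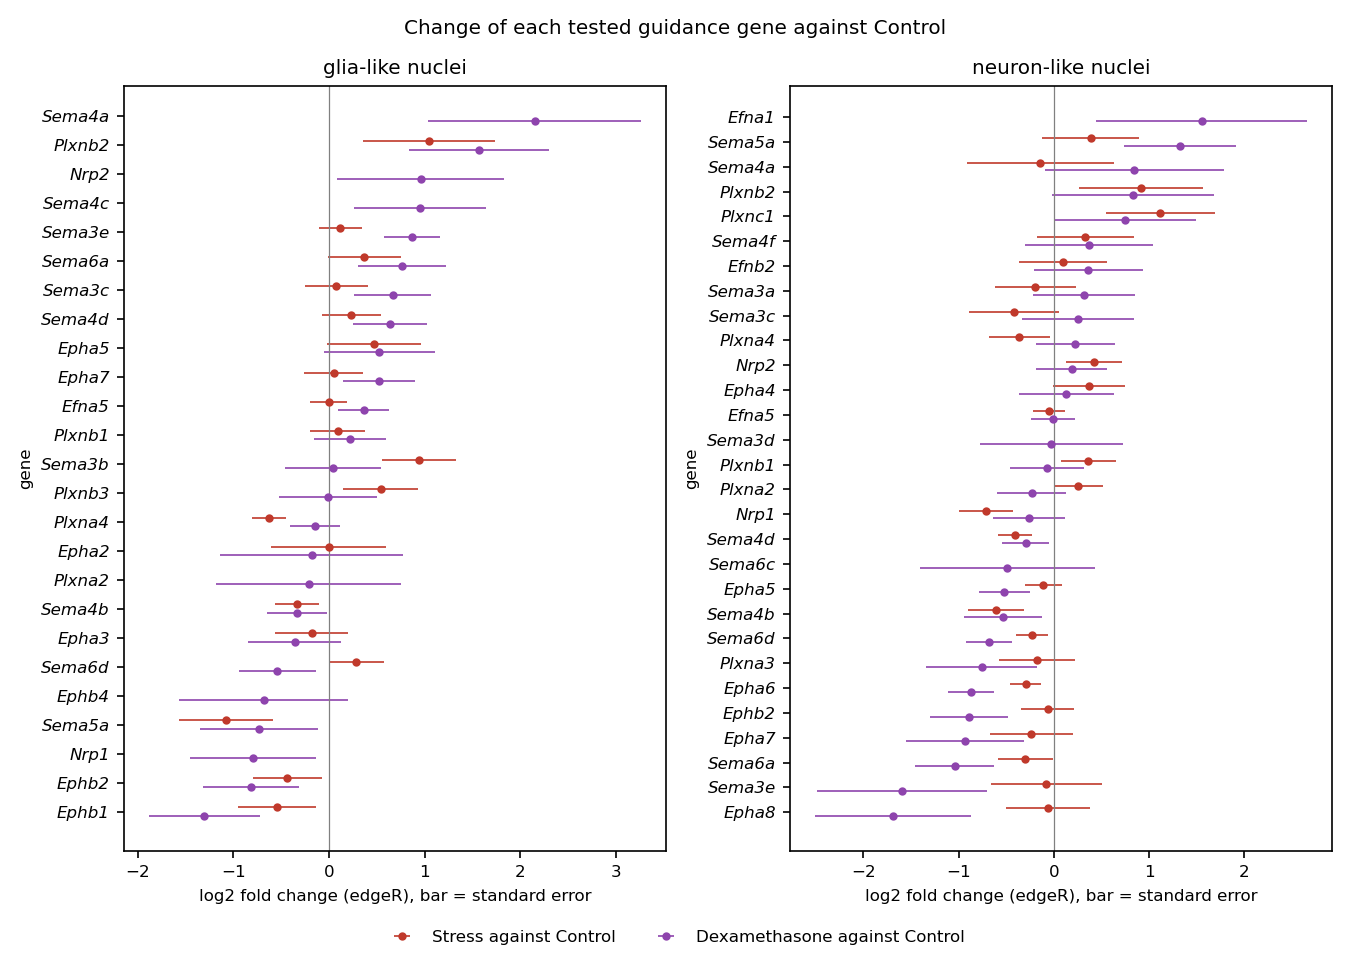
Log2 fold change against Control (horizontal axis; points, with bars of 1 standard error) of each guidance gene tested in glia-like (left) and neuron-like (right) nuclei, for Stress and for Dexamethasone, ordered by the Dexamethasone value. None passed an adjusted p of 0.05; the Stress values run from -1.08 to 1.05 in glia-like nuclei and from -0.72 to 1.12 in neuron-like nuclei.

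Dexamethasone was compared with the same Control libraries, and its single library was assumed to vary like the others. The deposited counts of that library were made with another version of the counting software, so version and treatment cannot be told apart. In glia-like nuclei 25 guidance genes were tested and 0 passed, where 5.95% of all 7677 genes did, with 3 at an unadjusted edgeR p under 0.05 (18.6% of all genes) and 0 called by DESeq2. Sema3e stood at 917 CPM in Dexamethasone and 623 and 445 in Control, and the Stress libraries had 545, 507 and 732. Dexamethasone was above every other library, with a log2 fold change of 0.87 ± 0.29 over Control (edgeR adjusted p = 0.0952) and 0.76 ± 0.27 over Stress (adjusted p = 0.182). Without Control 1 it was 1.15 over Control and passed (edgeR adjusted p = 0.0416), beside 5.48% of all genes. The higher level lay in the Arih1 and Nr4a3 cluster, at 1058 in Dexamethasone, 511, 504 and 818 in Stress and 469 and 519 in Control, and without this cluster the Sema3e change was -0.02. The Control values of that cluster rest on 6 and 3 nuclei, and Control 2 is under the minimum of 5 used for mean levels. In the Col11a1 and Frzb cluster Sema3e had 522 in Dexamethasone and 611 and 404 in Control, inside the Control range.

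Of the other guidance genes in Dexamethasone glia-like nuclei, Sema3c stood at 336 CPM, against 326 and 121 in Control, and passed without Control 1 (log2 fold change 1.58, edgeR adjusted p = 0.0159) but not with it (0.67 ± 0.40, adjusted p = 0.405). Sema4a had 19 UMIs in Dexamethasone, against 0, 3 and 1 in Stress and 4 and 2 in Control, at 3.54 ± 1.11 over Stress (edgeR adjusted p = 0.111). Sema4a was above every other library on the level scale as well, at 28.2 CPM against at most 8.53. Ephb1 (-1.30 ± 0.58) and Plxnb2 (1.57 ± 0.73) had unadjusted p-values of 0.037 and 0.045 in edgeR against Control, and without Control 1 they stood at -0.62 and 0.70. Plxnb2 had 1 UMI in Control 1 and stood at 3.81 without Control 2. Dexamethasone against Stress called 0 of 25 guidance genes in glia-like nuclei, beside 2.96% of all genes, with 3 at an unadjusted edgeR p under 0.05 (13.6% of all genes) and 0 called by DESeq2. Sema4a passed as higher in Dexamethasone when the mitochondrial filter was dropped, at 2.01 over Control (edgeR adjusted p = 0.0427, beside 6.26% of all genes) and 2.64 over Stress (adjusted p = 0.0166, beside 2.35%), and at 3.53 over Stress when low counts were kept (adjusted p = 0.0262, beside 0.956%). Without Control 1 and Stress 1 together 3 guidance genes passed over Control, Epha5 at 2.33, Sema3c at 1.64 and Sema3e at 1.21, beside 8.44% of all genes. The 8 smooth muscle markers, none of them at 0, summed to 426 CPM in Dexamethasone glia-like nuclei, 80.6 to 202 in Stress and 49.1 and 54.8 in Control, and their part in these values was not tested.

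In neuron-like nuclei 29 guidance genes were tested for Dexamethasone against Control and 0 passed, where 0.00% of all 9282 genes did. There were 4 at an unadjusted edgeR p under 0.05 (10.3% of all genes), and DESeq2 called 0. Epha6 had 406 CPM in Dexamethasone, 528, 621 and 611 in Stress and 725 and 669 in Control, so that Dexamethasone was lowest and Control highest without overlap. Its log2 fold change was -0.87 ± 0.24 against Control (edgeR adjusted p = 0.206) and -0.57 ± 0.22 against Stress (adjusted p = 0.668). Sema6d had 783 in Dexamethasone, 996, 1044 and 1098 in Stress and 1282 and 1079 in Control, again lowest in Dexamethasone, at -0.68 ± 0.24 against Control (edgeR adjusted p = 0.348). The Nmu cluster, which held 42 of 70 Dexamethasone nuclei, had 31.5 CPM of Sema6d in that library, and without this cluster the changes against Control were -0.55 for Sema6d and -0.80 for Epha6. Sema6a (-1.04 ± 0.42) and Sema5a (1.33 ± 0.59) had edgeR adjusted p-values of 0.409 and 0.463. When nuclei needed 500 genes and no more than 2% mitochondrial UMIs, the directions turned, with Sema6d at 0.0042, Epha6 at 0.34 and Sema6a at 0.38 against Control, and Epha6 at 0.32 against Stress. Without the mitochondrial filter Sema6a (-1.18) and Sema6d (-0.86) passed as lower in Dexamethasone (edgeR adjusted p = 0.0369 and 0.0487), beside 1.50% of all genes. Sema3e had 46.2 in Dexamethasone, 28.2, 226 and 89.3 in Stress and 192 and 53.4 in Control, so that the Stress range enclosed the Dexamethasone value. With low counts kept, Sema3e passed as lower in Dexamethasone, at -1.62 against Control (edgeR adjusted p = 0.00177, beside 1.11% of all genes) and -1.55 against Stress (adjusted p = 0.00199, beside 0.755%). The 8 smooth muscle markers, all detected, summed to 669 CPM in Dexamethasone, 117 to 298 in Stress and 103 and 81.5 in Control neuron-like nuclei, and their part was not tested. Dexamethasone against Stress called 0 of 29 guidance genes in this class, beside 0.00% of all genes, with 1 (Epha6) at an unadjusted edgeR p under 0.05 (6.56% of all genes) and 0 called by DESeq2.

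Within the Nos1 cluster alone, 2 of 20 guidance genes passed for Dexamethasone against Control, beside 1.44% of all 5891 genes tested there. Single clusters were tested in edgeR under the main filters only, without DESeq2 and without leaving out libraries, so these results lack the checks made for the classes. Efna5 had 375 CPM in Dexamethasone (11 nuclei), 657, 1120 and 920 in Stress and 1047 and 1055 in Control. The Dexamethasone library was below all others, and Efna5 fell by 1.60 ± 0.31 on the log2 scale (SE; edgeR adjusted p = 0.00445). Epha6 had 429 in Dexamethasone, 564, 715 and 756 in Stress and 983 and 987 in Control, and fell by 1.31 ± 0.28 (edgeR adjusted p = 0.0118). For Epha6 the Stress libraries lay between, whereas for Efna5 Stress 2 was above both Control libraries. Efna5 in the Grik1 and Sst cluster was 1916 in Dexamethasone (7 nuclei) and 1375 and 880 in Control, on the other side. Over the whole neuron-like class Efna5 was 1034 in Dexamethasone and 1043 and 916 in Control, a log2 fold change of -0.01 ± 0.23.

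**Figure D3:**
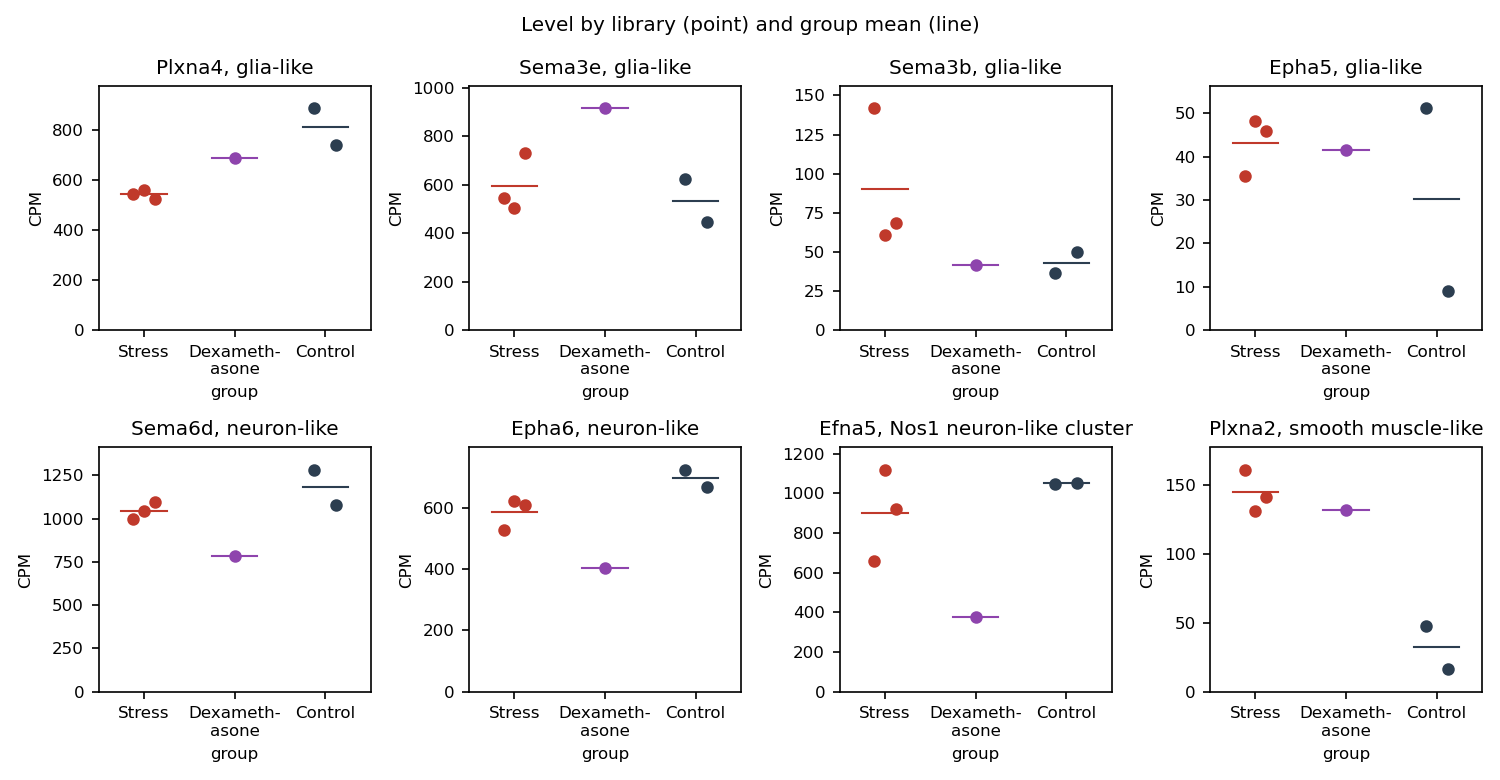
CPM (vertical axis) of 8 guidance genes by group (horizontal axis) in the class or cluster named above each panel; points are libraries and lines group means. Plxna4 in glia-like nuclei lies at 524 to 561 in Stress, below both Control libraries, and Efna5 in the Nos1 cluster is lowest in Dexamethasone at 375.

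Among smooth muscle-like nuclei 13 guidance genes were tested for Stress and 14 for Dexamethasone against Control, and 0 passed in either, beside 0.352% and 0.986% of all genes. At an unadjusted edgeR p under 0.05 there were 1 in Stress (11.0% of all genes) and 3 in Dexamethasone (11.7%), and DESeq2 called 0 in both. Plxna2, a receptor of Sema6a, had 161, 131 and 142 CPM in Stress, 132 in Dexamethasone and 48.0 and 16.7 in Control. Every Stress library and the Dexamethasone library were above both Control libraries, which together held 6 UMIs of Plxna2. The log2 fold changes were 1.88 ± 0.51 in Stress (edgeR adjusted p = 0.172) and 1.76 ± 0.60 in Dexamethasone (adjusted p = 0.207), and without Control 1 they were 2.98 and 2.84. The smaller cluster, where Plxna2 was higher, had 20, 11 and 32 nuclei in Stress, 11 in Dexamethasone and 8 and 2 in Control. In the larger cluster alone Plxna2 was 126, 90.9 and 53.9 in Stress, 109 in Dexamethasone and 34.8 and 18.7 in Control, still without overlap. For Stress, 0 of the 9 guidance genes tested in that cluster had an unadjusted edgeR p under 0.05, beside 232 of all 2045 genes. Plxna2 thus did not reach it there. For Dexamethasone 5 of 14 did, beside 382 of all 3048 genes, and 0 passed. Plxna4 had 218 in Dexamethasone and 57.6 and 83.3 in Control (1.58 ± 0.69, edgeR adjusted p = 0.383). The summed glial markers, of which Fabp7 alone was at 0, were 696 CPM in Dexamethasone smooth muscle-like nuclei, 65.6 to 175 in Stress and 77 and 50 in Control, and their part in this value was not tested. For Sema3a and Epha7, both highest in this class, the groups of Stress and Control overlapped. Sema3a had 1506, 1546 and 1650 in Stress, 1451 in Dexamethasone and 1451 and 1682 in Control, and Epha7 had 855, 1160 and 980 in Stress, 712 in Dexamethasone and 1038 and 1049 in Control. Their Stress changes were -0.09 ± 0.23 and -0.16 ± 0.24 on the log2 scale.

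In epithelium-like nuclei 12 guidance genes were tested for Stress against Control and 0 passed, beside 0.00% of all genes, with 1 at an unadjusted edgeR p under 0.05 (8.19% of all genes) and 0 called by DESeq2. Epha2, an Eph receptor of epithelia, had 130, 156 and 132 CPM in Stress and 42.2 and 0 in Control, where Control 2 contributed 23 nuclei. All Stress libraries were above both Control libraries, at a log2 fold change of 2.08 ± 0.56 (edgeR adjusted p = 0.312), and 1.78 without Control 2. One epithelium-like cluster was mostly of Stress 2, with 142 of its 177 nuclei. In the cluster led by Cpm and Trpm6 alone, Epha2 was 136, 83.7 and 66.5 in Stress and 35.6 and 0 in Control. The Stress 3 value there rests on 7 nuclei. All 23 epithelium-like nuclei of Control 2 lie in this cluster, so its 0 is the same value as for the class. Efnb2, a B-type ephrin that was highest in this class, had 680, 821 and 510 in Stress and 575 and 303 in Control, which overlapped.

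In fibroblast-like nuclei 7 guidance genes were tested for Stress (1.16% of all genes called) and 11 for Dexamethasone (2.36%) against Control, and 0 passed in either. At an unadjusted edgeR p under 0.05 there were 0 in Stress (11.8% of all genes) and 3 in Dexamethasone (11.8%), and DESeq2 called 0 in both. In Dexamethasone 2 of the 11 genes were above 0 and their median was -0.96, beside -0.05 over all genes. That median was -0.35 without Control 1 and -0.10 over 42 genes with low counts kept. Nrp2 had 42.9 CPM in Dexamethasone (4 UMIs), 367, 218 and 230 in Stress and 191 and 184 in Control, and Dexamethasone was the lowest library (log2 fold change -2.07 ± 0.76, edgeR adjusted p = 0.202). Sema5a (-1.42 ± 0.63) and Sema6a (-2.61 ± 1.02) were likewise lowest in Dexamethasone, with edgeR adjusted p-values of 0.357 and 0.242. Sema3c did not share this pattern, at 698 in Dexamethasone, 677, 630 and 672 in Stress and 592 and 1178 in Control.

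In lymphatic endothelium-like nuclei 6 guidance genes were tested for Stress (0.00% of all genes called) and 9 for Dexamethasone (0.277%) against Control, and 0 passed. At an unadjusted edgeR p under 0.05 there were 2 in Stress (9.21% of all genes) and 0 in Dexamethasone (6.78%), and DESeq2 called 0 in both. Plxna2 had 257, 378 and 228 CPM in Stress and 845 and 360 in Control, with Stress 2 above Control 2. Its log2 fold change was -1.16 ± 0.46 (edgeR adjusted p = 0.472), and without Control 1 it was -0.40. Sema3d had 440, 477 and 491 in Stress, 660 in Dexamethasone and 1293 and 584 in Control, with every Stress library below both Control libraries, at -1.07 ± 0.38 in Stress (edgeR adjusted p = 0.421) and -0.37 without Control 1. The 8 smooth muscle markers, none of them at 0, summed to 917, 258 and 156 CPM in Stress lymphatic endothelium-like nuclei, 226 in Dexamethasone and 0 and 45 in Control. Of the glial markers 11 of 14 had UMIs, with Col28a1, Kcna1 and Fabp7 at 0, and they summed to 110, 119 and 2109 in Stress, 50.1 in Dexamethasone and 99.4 and 45 in Control. The part of these markers in the values was not tested.

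The proteins that carry or complement these signals were followed in 2 further lists, chosen with earlier results of these data known. Of 48 partner genes, such as the CRMP and MICAL proteins that act downstream of plexins and the enzymes downstream of Eph receptors, 33 were tested in Dexamethasone against Control glia-like nuclei, and 2 rose, 0 fell and 31 did not pass, beside 5.95% of all genes called. The median of the 33 was 0.11, beside -0.06 over all genes. Mical2, an actin-oxidising enzyme, had 63.9 CPM in Dexamethasone, 25.8, 90.0 and 56.2 in Stress and 17.1 and 9.13 in Control, and rose by 2.34 ± 0.57 on the log2 scale (edgeR adjusted p = 0.0182, and 0.108 without Control 2). Without the Arih1 and Nr4a3 cluster the change was 2.36 (edgeR adjusted p = 0.252), where 23 of 7055 genes were called in place of 457 of 7677. DESeq2 gave adjusted p-values of 0.0991 for Mical2 and 0.196 for Dpysl3 against Control. The Mical2 levels of both Control libraries were below all others. Dpysl3, a CRMP protein of the growth cone, had 251 in Dexamethasone, 106, 94.2 and 158 in Stress and 122 and 121 in Control, and rose by 1.14 ± 0.31 against Control (edgeR adjusted p = 0.0332) and 1.17 ± 0.28 against Stress (adjusted p = 0.0291). Without Control 1 or Control 2 the change against Control was 1.16 or 1.12, with edgeR adjusted p-values of 0.0858 and 0.113, and without Stress 1 or Stress 2 that against Stress was 1.09 or 1.02, with 0.0747 and 0.0935. The Dpysl3 change against Control was 0.14 without the Arih1 and Nr4a3 cluster, whereas that of Mical2 stayed at 2.36. In that cluster Dpysl3 had 297 CPM in Dexamethasone, 160, 86.1 and 176 in Stress and 219 and 115 in Control, the last from 7 and 2 UMIs. In Dexamethasone against Stress, Dpysl3 was the 1 of 33 that rose, beside 2.96% of all genes called. In the other 12 comparisons 0 partner genes passed in edgeR, with 0 to 5 at an unadjusted p under 0.05 in each.

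Of 26 genes of other guidance families, the netrins, slits and their receptors among them, 25 were in the files and 1 passed, in both comparisons of smooth muscle-like nuclei, where 10 were tested for Stress and 12 for Dexamethasone, beside 0.352% and 0.986% of all genes called there. In the other 12 comparisons 0 passed in edgeR, with 0 to 3 at an unadjusted p under 0.05 in each. Slit3, a secreted ligand of Robo receptors, had 189, 96.6 and 138 CPM in Stress, 82.4 in Dexamethasone and 394 and 550 in Control. All Stress and Dexamethasone libraries were below both Control libraries, and Slit3 fell by 1.81 ± 0.33 in Stress (edgeR adjusted p = 0.0427) and fell by 2.57 ± 0.46 in Dexamethasone (edgeR adjusted p = 0.0108), comparisons that share the Control libraries. Of the 8 fibroblast markers 7 had UMIs in these nuclei, with Pdgfra at 0, and they summed to 532, 559 and 404 CPM in Stress, 307 in Dexamethasone and 740 and 633 in Control, and their part in the Slit3 values was not tested. Of the 33 Slit3 UMIs of Control 2, 16 came from 2 nuclei of the smaller cluster. In the larger cluster alone Slit3 was 251, 127 and 205 in Stress, 80.8 in Dexamethasone and 465 and 318 in Control, still without overlap, and the Stress change was -1.12 (edgeR adjusted p = 0.187). Leaving out Control 2, Stress 1, Stress 2 or Stress 3 gave -1.55, -2.05, -1.60 and -1.73 in Stress, with edgeR adjusted p-values of 0.138, 0.156, 0.0837 and 0.281. In Dexamethasone the Slit3 change was -1.45 under the stricter filter of nuclei and -1.57 without the mitochondrial filter, with edgeR adjusted p-values of 0.185 and 0.188.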

How the data were processed

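Single-nucleus libraries of 3 Stress, 1 Dexamethasone and 2 Control samples were analysed from the deposited matrices of UMI counts, made by the authors with Cell Ranger, in version 4.0.0 for Stress and Control and 5.0.1 for Dexamethasone per the file headers. The submitters' processing notes name Cell Ranger 5 and 5.0 and the build mm10. Whether introns or strand were used in counting is not given in the sources used here. Deposited gene and barcode files gave names only.

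Nuclei were filtered as stated in the report, doublets called per library with scrublet in scanpy 1.11.5 (0.896% of nuclei passing the filter), and the rest clustered on 2000 variable genes, 30 components and 15 neighbours at resolution 1.0 without the guidance genes. Of 23 clusters, those with a mean log2 fold of at least 0.35 for neuronal or glial and 1.5 for other marker lists could be named. These thresholds were set after the clusters were seen. At least 3 markers also had to be found in at least 10% of the nuclei each. A cluster stayed unnamed where its leading genes held more markers of another class, or where it was shallow and they held none of its own. This left out the cluster led by Kcnq1 and Cftr (285 nuclei, cycling markers at 1.88) and that led by Psca and Ppbp (117 nuclei, smooth muscle markers at 1.81). Mean levels used libraries with at least 5 nuclei of a class or cluster, while values of single libraries were given at any number of nuclei. Counts summed per class and library were tested with edgeR 4.0.16 (quasi-likelihood test, default low-count filter, TMM, Benjamini-Hochberg over all genes) in R 4.3.3, with DESeq2 1.42.0 as an alternative. The Stress and Dexamethasone comparisons share the Control libraries. Guidance genes were named by rule where they passed, where they were among the 5 of smallest p per direction in a glia-like or neuron-like comparison, or where they were among up to 4 genes with at least 50 UMIs that were highest in a class and exceeded the next class most. A set list of family members was named in any case, as were list genes that passed, and genes outside this rule were added after their values were seen. The guidance genes and the lists were chosen with earlier results of these data known. Promoter windows from RefSeq were matched by symbol for 47 of 56 genes.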

Additional observations from a re-analysis of the deposited data

How the results depend on the processing

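Under the alternatives the number of guidance genes called stayed at 0 in 205 of 217 recounts. Clustering at resolution 0.6 gave the same counts as the main setting in every comparison, and keeping doublets did so in Stress glia-like nuclei. Those recounts add no separate check. Leaving out single replicates gave 0 to 2 in Dexamethasone against Control glia-like nuclei and 0 in every other comparison. Without Control 1 and Stress 1 together, 2 were called in Stress and 3 in Dexamethasone against Control glia-like nuclei. Without the mitochondrial filter, which added 6882 barcodes, 1 was called in Dexamethasone against Control and 1 against Stress in glia-like nuclei (Sema4a in each), 2 in Dexamethasone against Control neuron-like nuclei (Sema6d and Sema6a) and 1 in the difference of Stress effects between neuron-like and glia-like nuclei (Sema5a). Without the low-count filter, Dexamethasone gave 1 against Stress in glia-like nuclei (Sema4a) and 1 against Control and 1 against Stress in neuron-like nuclei (Sema3e in each), and the Nos1 cluster alone gave 2. Among single genes, 422 of 470 values kept their direction and side of the threshold, 30 no longer passed, 8 newly passed and 10 reversed. These values belong to 31 results, most of them guidance genes at an unadjusted p under 0.05 that did not pass. For those, keeping the side of the threshold means still not passing. All 30 values that no longer passed belong to the list genes that had passed, Mical2, Dpysl3 and Slit3. Reversed were Plxna4 in Stress glia-like nuclei in the Col28a1 cluster (0.33), Sema3e in Dexamethasone glia-like nuclei in the Col28a1 cluster (-0.37), in the Col11a1 cluster (-0.082) and without the Arih1 cluster (-0.016), and Dpysl3 there in the Col11a1 cluster (-0.26). Nrp1 in Stress neuron-like nuclei reversed without the mitochondrial filter (0.15), and under the stricter filter of nuclei, at least 500 genes and at most 2% mitochondrial UMIs, Sema6d (0.0042), Epha6 (0.34) and Sema6a (0.38) against Control and Epha6 (0.32) against Stress reversed in Dexamethasone neuron-like nuclei. The cause was not tested. The stricter filter kept the highest class for 30 of 44 genes. Under it no gene was highest in vascular endothelium-like or macrophage-like nuclei. Whether these classes were still named with at least 5 nuclei in a library, as the ranking requires, was not checked. The highest classes below are therefore those among the classes ranked. Plxna2 and Plxnd1 were then highest in lymphatic endothelium-like nuclei, Nrp1 in fibroblast-like, Plxna4 in glia-like and Ephb4 in cycling nuclei. Sema4d and Plxnc1 were then highest in neuron-like nuclei, Sema4b in enteroendocrine-like and Ephb6 in glia-like nuclei. Sema3c, Sema4c, Sema4f, Plxna1 and Plxna4os3 had another highest class as well. Leaving out the Arih1 and Nmu clusters, singly or together, and testing the larger smooth muscle-like cluster alone were chosen after seeing the data.

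The labels do not say whether replicate numbers pair the libraries. Deviations of same-numbered Stress and Control libraries had correlations of -0.15 and -0.02 in glia-like and 0.01 and 0.07 in neuron-like nuclei. With 2 Control libraries the deviations of Control 1 and Control 2 mirror each other, so these correlations cannot settle the question. With a replicate block, 1 guidance gene passed, Epha2 in Stress epithelium-like nuclei (log2 fold change 2.19, edgeR adjusted p = 0.0476). Over all genes 52 were called there against 0 without the block, 27 against 0 in neuron-like, 39 against 20 in fibroblast-like and 155 against 134 in glia-like nuclei. The count stayed at 10 in smooth muscle-like and at 0 in lymphatic endothelium-like nuclei. DESeq2 called 86 genes where edgeR called 134 in Stress glia-like nuclei, 212 against 457 for Dexamethasone against Control and 81 against 227 for Dexamethasone against Stress there, 14 and 13 against 0 in neuron-like nuclei for Stress and for Dexamethasone, 12 against 0 in epithelium-like nuclei, 23 against 67 in Dexamethasone fibroblast-like and 9 against 38 in Dexamethasone smooth muscle-like nuclei. In the classes outside neurons and glia, only 6 to 14 guidance genes had enough counts to be tested, which limits what those comparisons can show.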
